A study of Mus musculus with 37 samples.

Results

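The response to estradiol was described for mature luminal cells of D542G mice, across all genes expressed in the series and grouped by what the genes do. It was taken from the 3 libraries labelled D542G with E2 (estradiol) and the 3 labelled D542G with placebo, 6 of the 37 libraries of the series, chosen by their titles. D542G is a mutation of Esr1, the gene of estrogen receptor alpha, and both groups carried it. All mice were raised to 8 weeks of age, ovariectomized and given pellets for 8 days, and luminal cells were then sorted from the mammary glands by flow cytometry. Further libraries served as comparators: D542G with E2 and P4 (progesterone) together, D542G with P4, Y541S (another Esr1 mutation) with E2 or placebo, and WT with E2 or placebo, with 3 libraries in each of these groups. The labels name neither the zygosity of the mutations nor a driver of their expression, and do not say whether a library came from 1 animal or a pool, so the p-values below measure the spread between these samples.

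Estrogen receptor alpha is a nuclear receptor that binds estradiol through its ligand-binding domain and then recruits coactivators to its binding sites on DNA. In the mammary gland it is found in a subset of luminal cells, the hormone-sensing cells, which answer estrogen by making secreted factors that act on neighbouring cells. Mutations of the ligand-binding domain such as those at the mouse residues named here are known from hormone-resistant breast cancer, where they give receptors with activity in the absence of hormone. Ovariectomy removes the main source of estrogen, so the placebo group is one of hormone withdrawal and the E2 group one of replacement.

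The summed counts were 33.83 to 50.06 M (mega-counts) per library among the 6, with 18938 to 19937 genes detected and 7.97% to 10.29% of counts in the top 10 genes. The label of luminal cells was checked on defining genes: Krt8, Krt18 and Krt19, the keratins of simple epithelium, and Epcam, the epithelial adhesion molecule, were abundant in every library (Epcam at 2625, 2533 and 2725 CPM with E2, and 2701, 2731 and 2363 CPM with placebo), whereas the basal keratins Krt5 and Krt14 stayed at or below 116 CPM. Levels are CPM, counts scaled to a common library size with TMM factors, in the order of libraries 1, 2 and 3. Differences are log2 fold changes of E2 over placebo ± SE from edgeR's quasi-likelihood test, and called genes are those whose p, adjusted by Benjamini-Hochberg across the 18426 genes tested, was under 0.05. CPM is not scaled for gene length, so levels are compared between groups and not between genes. Among the 12 D542G libraries the second principal component, with 19% of the variance, put the E2 libraries at -54.7, -52.1 and -107.3 and the placebo libraries at 84.2, 76.6 and 72.4. D542G E2 3 stood apart from the other E2 libraries on this component and had the highest summed endothelial, leukocyte, adipocyte and erythroid markers of the 3, given with the marker genes below.

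Esr1 itself (ENSMUSG00000019768, chromosome 10, 4611593 to 5005614 on GRCm38, plus strand) was at 89.6, 101 and 72.1 CPM with E2, against 167, 199 and 147 CPM with placebo. The groups did not overlap, and the difference of -0.97 ± 0.33 was called with little margin (edgeR quasi-likelihood, adjusted p = 0.0478). The call was lost when any 1 of the 6 libraries was left out, with adjusted p between 0.0575 and 0.171. Such counts cannot tell the mutant allele apart from a normal one.

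Estradiol changed 2893 of the 18426 genes (15.7%), 1541 of them higher (8.36% of those tested) and 1352 lower (7.34%). Of these, 816 were higher and 794 lower by at least 2-fold, and 306 were higher and 176 lower by at least 8-fold. The median of all tested genes was 0.009 on the log2 scale. Without D542G placebo 1 the test called 1861 genes, and without D542G placebo 2 it called 1817. Protein-coding genes made up most calls, with 1391 higher and 1257 lower of 15024 tested, and lincRNA genes had 34 higher and 29 lower of 864. In 36.7% of all tested genes the E2 and placebo libraries did not overlap, and among the called genes this held for 2774 of 2893.

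**Figure D1:**
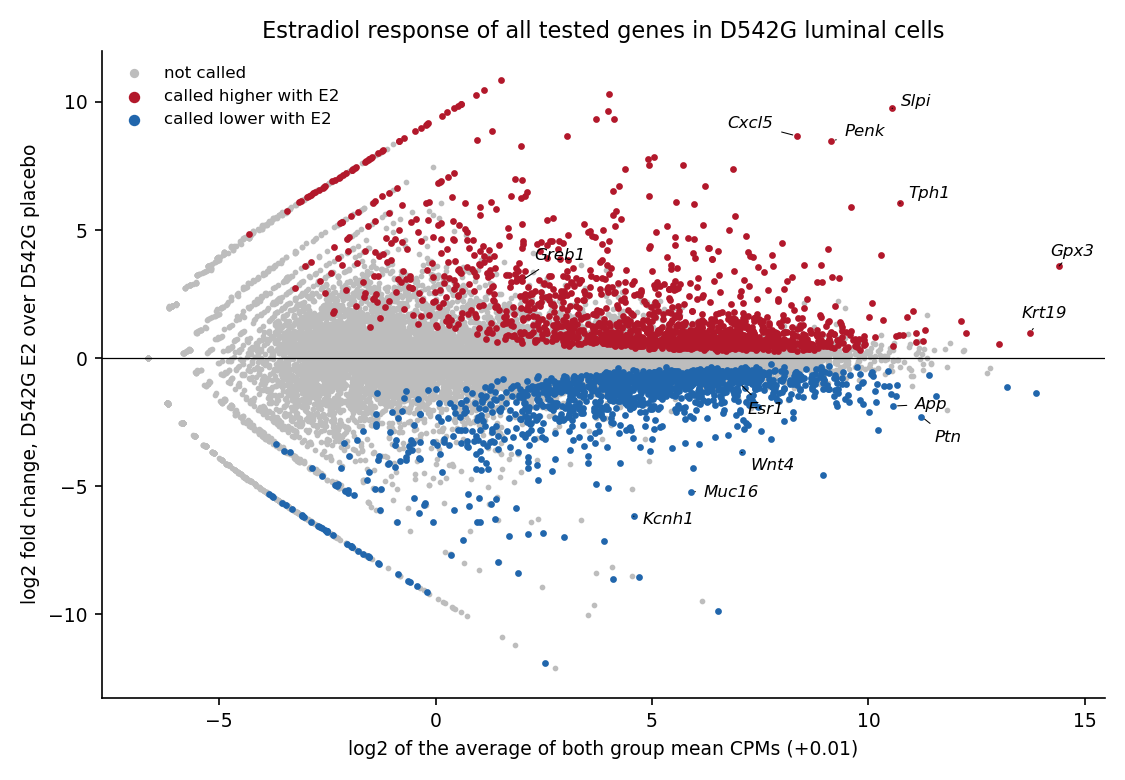
Each point is 1 of the 18426 tested genes, with the log2 of the average of both group means in CPM (plus 0.01) on the x axis and the log2 fold change of D542G E2 over D542G placebo on the y axis; red genes were called higher, blue genes lower, grey genes neither. At high levels Slpi lies at 9.75 and Gpx3 at 3.60, and Kcnh1, the lowest of the labelled genes, lies at -6.17; straight lines of points at the left edge are genes with few counts.

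Among called genes whose log2 CPM averaged 2 or more over the 6 libraries and whose groups did not overlap, several of the largest rises were in genes of secreted proteins. Slpi, which encodes a protease inhibitor of mucosal secretions (chromosome 2, 164354070 to 164389095, minus strand), was at 2115, 3783 and 3070 CPM with E2, against 4.23, 3.0 and 3.18 CPM with placebo. Every E2 library lay far above every placebo library, and the difference was 9.75 ± 1.04 (adjusted p = 2.58e-07). Cxcl5, a chemokine that attracts neutrophils (chromosome 5, 90759360 to 90761624, plus strand), was at 584, 736 and 626 CPM with E2, against 0.795, 1.32 and 2.64 CPM with placebo (8.67 ± 1.11, adjusted p = 3.15e-06). Penk, the precursor of the enkephalin opioid peptides, was at 1009, 1532 and 849 CPM with E2, against 6.72, 1.32 and 1.51 CPM with placebo (8.47 ± 1.19, adjusted p = 1.10e-05). These 3 genes were near silence without estradiol and among the abundant transcripts with it. Tph1, which encodes the rate-limiting enzyme of serotonin synthesis outside the brain, was at 2356, 4000 and 3622 CPM with E2 and at 20, 48.7 and 81.9 CPM with placebo (6.05 ± 0.77, adjusted p = 2.78e-06). Ccn5, a matricellular protein gene, was at 1715, 1575 and 1278 CPM with E2 and at 21.3, 31.2 and 24.9 CPM with placebo (5.88 ± 0.65, adjusted p = 3.95e-07).

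The other genes among the 15 largest rises by this rule were Vstm2b (7.78), the olfactomedin-like gene Olfml3 (7.54), the kallikrein protease gene Klk7 (7.39), the keratin gene Krt77 (6.70), the gel-forming mucin gene Muc5b (6.32), the secretoglobin gene Scgb3a1 (6.09), the troponin gene Tnnc1 (6.01), the gamma-glutamyltransferase gene Ggt5 (5.76), the Kazal inhibitor gene Spink2 (5.58) and the serine protease gene Htra3 (5.56). Klk7 was at 148, 167 and 381 CPM with E2 and Scgb3a1 at 31.5, 55.3 and 191 CPM, so D542G E2 3 was the highest library for both. With placebo Klk7 was at 0.0682, 0.0454 and 3.99 CPM, and its log2 fold change was 11.92 without D542G placebo 3. The span of Tnnc1 is wholly overlapped by that of another gene, so its reads could be shared.

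By the same rule, the largest falls included genes of ion handling, membrane proteins and signalling. Kcnh1, a voltage-gated potassium channel gene (chromosome 1, 192190774 to 192510159, plus strand), was at 0.288, 1.07 and 0.662 CPM with E2, against 87.9, 38.7 and 14.4 CPM with placebo (-6.17 ± 0.91, adjusted p = 2.25e-05). Kcnma1, the large-conductance calcium-activated potassium channel gene, was at 0.505, 0.552 and 1.7 CPM with E2, against 17.0, 34.8 and 40.0 CPM with placebo (-5.05 ± 0.71, adjusted p = 1.13e-05). Its auxiliary subunit gene Lrrc26 fell by 3.35 on the log2 scale, with 7.9, 11.7 and 16.7 CPM with E2 and 146, 116 and 108 CPM with placebo. The pore-forming and the auxiliary gene of this channel thus fell together in all E2 libraries. Muc16, a membrane-bound mucin gene, was at 7.38, 1.28 and 0.662 CPM with E2, against 147, 107 and 93.8 CPM with placebo (-5.21 ± 1.01, adjusted p = 5.53e-04). Fxyd2, a regulator of the sodium-potassium pump, was at 18.7, 74.2 and 25.3 CPM with E2, against 657, 1005 and 1169 CPM with placebo (-4.58 ± 0.88, adjusted p = 5.11e-04).

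Wnt4, the Wnt ligand through which hormone-sensing cells act on basal stem cells (chromosome 4, 137277489 to 137299726, plus strand), was at 23.7, 26.1 and 8.66 CPM with E2, against 252, 193 and 304 CPM with placebo. The groups were far apart, with a difference of -3.68 ± 0.60 (adjusted p = 8.49e-05). The other large falls were Gm12873 (-4.30), the galactosidase-like gene Glb1l2 (-4.10), the imprinted gene Mest (-4.09), the chloride channel family gene Clic6 (-3.62), the ciliogenesis factor gene Foxj1 (-3.60), Gm12888 (-3.52), the actin-oxidizing enzyme gene Mical2 (-3.46), the heparan sulfate enzyme gene Extl1 (-3.33) and Aif1l (-3.30). Mest rested on D542G placebo 1, at 85.9 CPM beside 7.22 and 15.2 CPM in the other placebo libraries, and without it the difference was -2.41 (adjusted p = 0.111). The call of Gm12888 was lost without D542G placebo 2 or 3 or any 1 E2 library, with adjusted p up to 0.126.

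Genes near 0 in 1 group can fall under that mean and still show larger fold changes, and those given here were chosen after their values were seen. Ache, the acetylcholinesterase gene, averaged 0.221 CPM with E2 and 29.6 CPM with placebo (-7.15 ± 1.28), and Gsdmc2, a gasdermin gene, averaged 0.092 CPM with E2 and 34.2 CPM with placebo (-8.63 ± 1.85). Fam19a4, a secreted neurokine gene, averaged 31.8 CPM with E2 and 0.0374 CPM with placebo (9.63 ± 1.11). Krt71 averaged 0.19 CPM with E2 and 185 CPM with placebo and was called at the edge of the threshold (-9.85 ± 3.44, adjusted p = 0.0498).

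Some of the most abundant transcripts changed as well. Gpx3, App and F3 were picked after their values were seen, from called genes with large changes in mean CPM. Other genes changed by more than App and F3. The largest fall in mean CPM was that of Slc12a2, from 21643 CPM with placebo to 8448 CPM with E2 (-1.36 ± 0.46). Gpx3, the secreted glutathione peroxidase gene, was at 38426, 41268 and 40768 CPM with E2, against 2235, 2677 and 5013 CPM with placebo (3.60 ± 0.44, adjusted p = 1.64e-06). It averaged 40154 ± 1517 CPM with E2 and 3308 ± 1493 CPM with placebo (SD, n = 3 each), and its groups were far apart. App, the amyloid precursor protein gene, fell to 702, 680 and 584 CPM with E2, against 2516, 2519 and 2173 CPM with placebo (-1.87 ± 0.19, adjusted p = 9.95e-08). F3, the tissue factor gene, was at 3301, 3583 and 2923 CPM with E2, against 687, 1032 and 1036 CPM with placebo (1.83 ± 0.35, adjusted p = 4.40e-04). Among called genes with a mean of at least 10 CPM in 1 group, a pair had at most 3 counts in the other. Ubxn10, a gene of ciliogenesis, had 0 counts over the E2 libraries and 1559 over the placebo libraries, at 16.2, 11.4 and 7.34 CPM with placebo. Against a floor of 3 counts over the group, it was at least 409-fold lower with E2. Thbs4, a thrombospondin gene, rested on 1 library, at 0.024, 0.0 and 95.9 CPM with E2 and 0.0, 0.0454 and 0.0213 CPM with placebo.

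**Figure D2:**
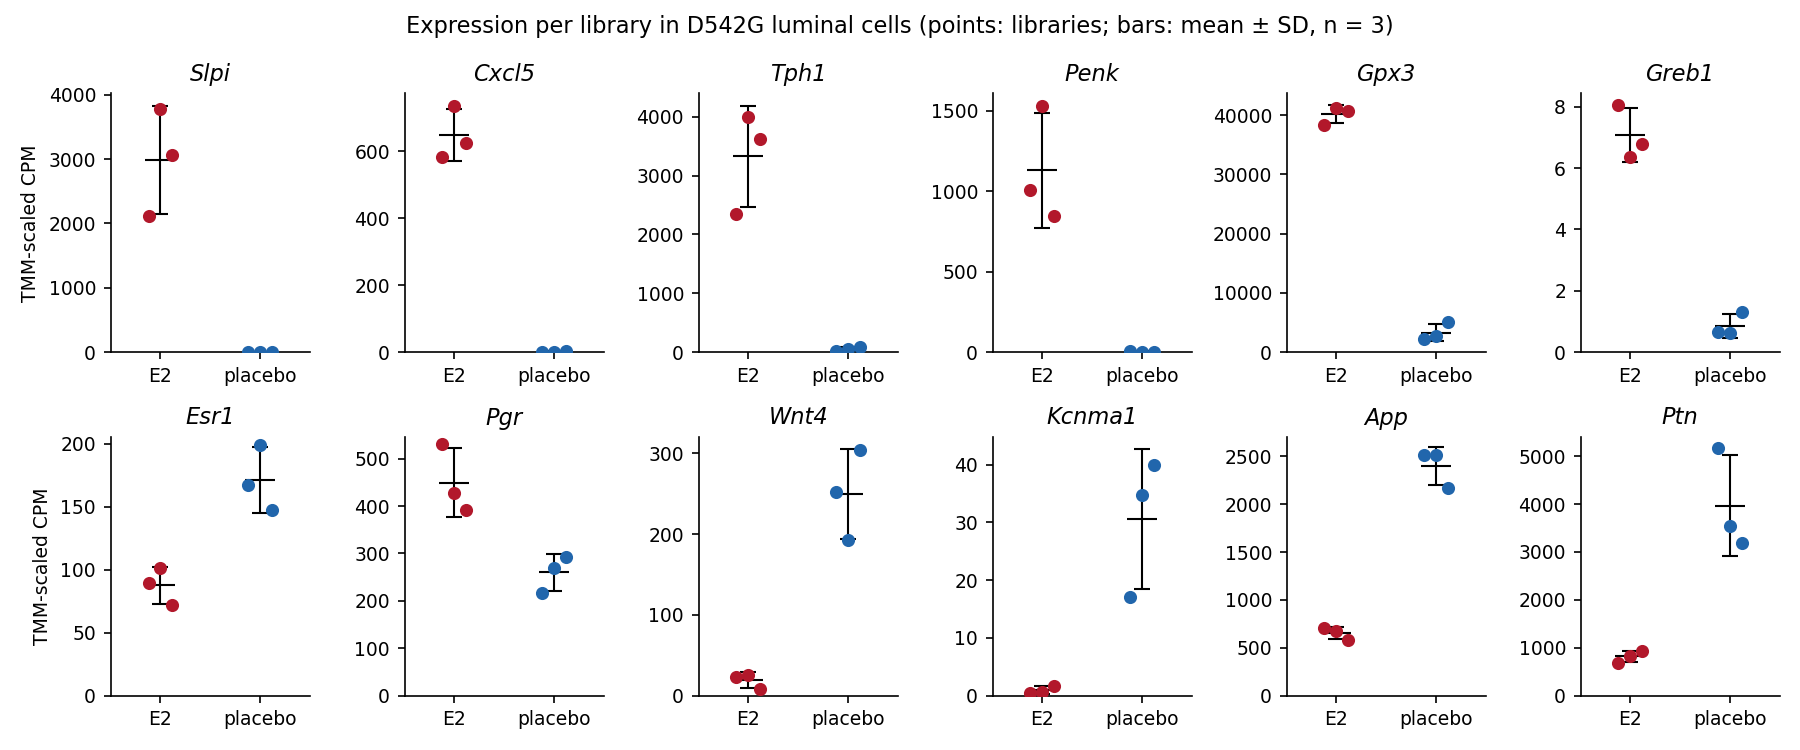
Each panel gives the TMM-scaled CPM of 1 gene in the 3 D542G E2 libraries (red, left) and the 3 D542G placebo libraries (blue, right), with bars for mean ± SD and y axes that start at 0. Slpi, Cxcl5, Tph1 and Penk are close to 0 in every placebo library, Wnt4 and Kcnma1 are close to 0 in every E2 library, and Esr1 and Pgr differ by less.

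Genes of the estrogen axis responded unevenly. Greb1, a classical target and cofactor of the receptor (chromosome 12, 16670615 to 16800886, minus strand), was at 8.05, 6.35 and 6.79 CPM with E2, against 0.659, 0.613 and 1.3 CPM with placebo. It rose by 3.03 ± 0.55 (adjusted p = 2.81e-04) while staying a low transcript. Pgr, the progesterone receptor gene and a standard readout of estrogen action, was at 530, 427 and 392 CPM with E2, against 217, 270 and 293 CPM with placebo. Its groups did not overlap, but the difference of 0.79 ± 0.37 was not called (adjusted p = 0.145). With only these 6 libraries in the fit it was (adjusted p = 0.0127).

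Of 26 tested estrogen receptor targets, 6 rose and 1 fell (26.9%, against 15.7% of all genes; median 0.55, against 0.009). Beside Greb1, the chemokine gene Cxcl12 (3.64), the retinoic acid hydroxylase gene Cyp26b1 (0.605 CPM or below with E2 and listed at 0.0 with placebo), Stc2 (1.08), Myc (1.03) and the unfolded protein response factor gene Xbp1 (0.83) rose, and the adenylyl cyclase gene Adcy9 fell by 1.22. Cxcl12 was at 92.7, 75.9 and 71.6 CPM with E2 and at 5.11, 4.88 and 9.32 CPM with placebo (adjusted p = 1.90e-05). Without D542G placebo 1 only 3 of the targets were called higher. Myc, at 238, 187 and 227 CPM with E2 and 98.8, 138 and 83 CPM with placebo, was not called in 4 of the 6 fits with 1 library left out. Ccnd1, the cyclin D1 gene, was level at 306, 203 and 218 CPM with E2 and 242, 226 and 221 CPM with placebo (0.08 ± 0.29, adjusted p = 0.895). The targets of progesterone and glucocorticoid receptors had 2 of 19 higher (Errfi1 at 0.92 and Cdkn1a at 0.87) and 1 lower (Per1), which is 15.8% called against 15.7% of all genes, with a median of -0.60. None was called higher without D542G placebo 1 or D542G E2 1. Fkbp5, a chaperone gene of that list, was at 12.3, 11.3 and 10.4 CPM with E2 and 23.2, 13 and 6.91 CPM with placebo (-0.34 ± 0.47, adjusted p = 0.675). A search of the promoter windows described below for the estrogen response element, the letters GGTCANNNTGACC, found it in 4 of 12672 genes and in none of those called, and its part GGTCA in 42.6% of all genes, 43.3% of those called higher and 45.3% of those called lower. With only 4 genes holding the full element, its absence from the called genes is uninformative. Sites outside these windows were not searched.

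The genes that define hormone-sensing luminal cells were lower on balance: 6 of 18 fell and 1 rose (38.9% called; median -0.66). Beside Wnt4 and Esr1 these were the growth factor gene Ptn, the prolactin receptor gene Prlr, the prominin gene Prom2 and the transcription factor gene Tbx3, and Xbp1 was the one that rose. Ptn was at 689, 834 and 931 CPM with E2, against 5176, 3542 and 3186 CPM with placebo (-2.28 ± 0.57, adjusted p = 0.00564). Prlr was at 1205, 981 and 979 CPM with E2, against 1992, 2112 and 2390 CPM with placebo (-1.04 ± 0.33, adjusted p = 0.0322). The number that fell was 2 without D542G E2 2, D542G E2 3 or any 1 placebo library. Foxa1, the pioneer factor of the receptor, was at 256, 311 and 138 CPM with E2 and 377, 269 and 535 CPM with placebo (-0.74 ± 0.42, adjusted p = 0.247). Its coactivator Cited1 was at 143, 197 and 94.4 CPM with E2 and 373, 211 and 194 CPM with placebo (-0.84 ± 0.47, adjusted p = 0.235). Gata3, the luminal master factor, was at 366, 323 and 356 CPM with E2 and 298, 331 and 377 CPM with placebo (0.06 ± 0.26, adjusted p = 0.917). In bulk samples, fewer cells of a type and less RNA per cell cannot be told apart.

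Markers of luminal progenitor and alveolar cells did not move as a group, with 0 of 18 higher and 2 lower (11.1% called, median -0.03). The progenitor receptor gene Kit was at 49.2, 29.9 and 31.7 CPM with E2, against 111, 139 and 58.2 CPM with placebo (-1.47 ± 0.48, adjusted p = 0.0329), a call lost without D542G placebo 1 or 2 or D542G E2 2 or 3. The chemokine gene Cx3cl1 fell by 1.32 (adjusted p = 2.39e-06). Elf5, the alveolar master factor, was at 19.2, 25.3 and 37.5 CPM with E2 and 21.6, 21.1 and 23.4 CPM with placebo (0.31 ± 0.44, adjusted p = 0.682). Of 19 genes of milk protein and lipid secretion, 3 rose, which were the phosphate transporter gene Slc34a2 (4.50), the lipid droplet gene Plin2 (1.03) and the thioesterase gene Olah (at 1.44 CPM or below), and Muc1 fell by 1.49 (21.1% called). The number higher was 1 without D542G placebo 3 or D542G E2 3 and 6 by DESeq2, and the number lower was 2 without D542G E2 3. The milk fat globule gene Mfge8 was at 1363, 1039 and 1559 CPM with E2 and 1007, 1421 and 823 CPM with placebo, and was not called (0.29 ± 0.29, adjusted p = 0.553). The casein gene Csn2 was at 4.61 CPM or below in every library and was called by DESeq2 and with only the 6 libraries in the fit (adjusted p = 0.0186 and 0.0343), but not otherwise (adjusted p = 0.192).

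Of 18 tested paracrine factors of hormone-sensing cells, 6 rose and 2 fell (44.4%; median 0.96). Penk, Cxcl12, the decoy receptor gene Tnfrsf11b (3.40), Il6 (2.53) and the EGF receptor ligand genes Epgn and Areg rose, and the Wnt ligand genes Wnt4 and Wnt7b fell. Areg, amphiregulin, the ligand known to carry the estrogen signal for ductal growth, was at 383, 443 and 238 CPM with E2, against 49.8, 183 and 174 CPM with placebo. Its groups did not overlap and it was called (1.39 ± 0.47, adjusted p = 0.0424), but only D542G E2 3 could be left out without losing the call. Epgn, epigen, was at 91.0, 98.8 and 56.2 CPM with E2, against 7.11, 18.0 and 13 CPM with placebo (2.69 ± 0.59, adjusted p = 0.00205). Wnt7b was at 220, 214 and 183 CPM with E2, against 465, 481 and 480 CPM with placebo (-1.21 ± 0.22, adjusted p = 2.84e-04). Tnfsf11, RANKL, the main mediator of progesterone, was at 0.182 CPM or below in all 6 libraries, and Calca showed no called difference (0.25 ± 0.80, adjusted p = 0.872). Among 16 neuropeptide and hormone genes 5 rose and 1 fell (37.5% called, against 15.7% of all genes). Tph1, Penk, the neuromedin gene Nmu (4.47), Stc2 and Calcb (3.66) rose and Stc1 fell by 2.43. Without D542G placebo 1 the number that rose was 3.

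Chemokine and cytokine genes formed one of the most affected lists, with 13 of 22 higher and 1 lower (63.6%; median 2.49). Beside Cxcl5 and Cxcl12, the neutrophil chemokine genes Cxcl1 (3.95), Cxcl2 (3.85) and Cxcl15 (1.62), the T cell chemokine genes Ccl5 (4.57) and Cxcl9 (3.02), the monocyte chemokine gene Ccl7 (4.11) and the cytokine genes Il33, Tnf (2.45), Csf3 (1.41), Il6 and Il1b (5.02) rose, and Cxcl16 fell by 0.92. Il33, an alarmin of epithelial cells (chromosome 19, 29925114 to 29960718, plus strand), was at 968, 1197 and 888 CPM with E2, against 25.5, 58.5 and 74.7 CPM with placebo (4.27 ± 0.72, adjusted p = 1.12e-04). Cxcl1 was at 234, 326 and 353 CPM with E2, against 12.4, 15.2 and 31.3 CPM with placebo (adjusted p = 2.27e-04). Both were high in all E2 libraries and low in all placebo libraries. Il1b was at 0.673, 0.0 and 2.5 CPM with E2 and 0.0682, 0.0 and 0.0213 CPM with placebo, and Il6 was at 4.83, 5.14 and 28.6 CPM with E2 and 3.68, 0.863 and 2.15 CPM with placebo. Both were highest in D542G E2 3, the library in which the leukocyte marker sum was also highest, and the part of leukocytes in these results was not tested. Without D542G E2 3, 10 of the list were called higher and 0 lower.

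Among 19 genes of secreted innate defence 4 rose and 0 fell (21.1%; median 0.98). They were Slpi, the complement gene C3, the surfactant protein gene Sftpd (4.47) and the lysozyme gene Lyz2. C3 was at 211, 123 and 122 CPM with E2, against 9.36, 7.29 and 6.72 CPM with placebo (4.28 ± 0.46, adjusted p = 2.45e-07). Lyz2, which is also a marker of myeloid cells, was at 14.6, 1.93 and 75.5 CPM with E2, against 2.34, 0.341 and 1.22 CPM with placebo. Of 18 genes of NF-kappaB feedback and targets, 4 fell and 2 rose (33.3% called, median 0.16). The subunit genes Relb (-0.77) and Nfkb2 (-0.80), the inhibitor gene Nfkbie (-1.06) and Birc2 (-0.81) fell, and Cxcl1 and Vcam1 (3.40) rose. Without D542G E2 3 this list had 4 higher and 3 lower, and with only the 6 libraries in the fit 4 and 4. Antigen presentation genes had 0 of 13 higher and 4 lower (30.8%; median -0.32): H2-K1 (-1.10), H2-D1 (-0.65), the class II chaperone gene H2-DMb1 (-1.12) and the peptide transporter gene Tap2 (-0.76). H2-K1 was at 966, 989 and 773 CPM with E2, against 2034, 1915 and 1882 CPM with placebo (adjusted p = 3.99e-04). Without D542G E2 3 the number that fell was 2. H2-K1 and H2-D1 are close relatives, and reads could be shared between them.

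Genes of the type I interferon response rose: 14 of 25 were higher and 1 lower (60.0%; median 1.11). Interferon acts through receptors and transcription factors on a short promoter element, the interferon-stimulated response element, and its targets encode antiviral proteins. Ifit3, an RNA-binding antiviral gene, was at 8.82, 9.21 and 19.3 CPM with E2, against 0.886, 0.204 and 0.469 CPM with placebo (4.57 ± 0.70, adjusted p = 3.21e-05). Ifit1 was at 38.5, 34.1 and 50.2 CPM with E2, against 7.97, 3.22 and 5.1 CPM with placebo (2.91 ± 0.53, adjusted p = 2.65e-04). Isg15, the ubiquitin-like modifier gene, was at 18.4, 25.7 and 18.3 CPM with E2, against 5.77, 4.65 and 6.46 CPM with placebo (1.88 ± 0.43, adjusted p = 0.00299). In each of these the lowest E2 library lay above the highest placebo library. Ifit3b, Rsad2, Oasl1, Isg20, Ifi44, Oas1a, Bst2, Irf7, Ifit2, Mx1 and Rtp4 rose by 0.94 to 4.36, and Ddx58, an RNA sensor gene, fell by 0.96. Ifit3 and Ifit3b are near-identical, so their values are uncertain one by one. Without D542G placebo 2 the number higher was 8, without D542G E2 2 it was 9, and without D542G E2 3 it was 11.

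RefSeq promoter windows (GRCm38.p6, 250 bases before to 50 after a start site) were at hand for 12672 of the tested genes. The response element was searched on both strands as the letters GAAANNGAAAC. It was found in 129 of all genes with a window (1.02%), and in 9 of the 19 interferon genes with one (47.4%). Among those that rose it was in 6 of 12. It was also in Ddx58, which fell, and in Ifih1 and Stat2, which were not called. The list was made of known interferon-responsive genes, and a link between the element and the rise with E2 was not tested. A match of letters is a description and does not show that a factor binds. The windows of Ifit3, at chr19:34583279-34583578 (plus strand), Ifit1, at chr19:34640639-34640938 (plus strand), and Isg15, at chr4:156200769-156201068 (minus strand), are shown because they belong to the genes with values above and hold the element, with its matches in capitals. Each holds 2 matches, which overlap in Isg15 and read on the opposite strand in Ifit3 and Ifit1.
Ifit3: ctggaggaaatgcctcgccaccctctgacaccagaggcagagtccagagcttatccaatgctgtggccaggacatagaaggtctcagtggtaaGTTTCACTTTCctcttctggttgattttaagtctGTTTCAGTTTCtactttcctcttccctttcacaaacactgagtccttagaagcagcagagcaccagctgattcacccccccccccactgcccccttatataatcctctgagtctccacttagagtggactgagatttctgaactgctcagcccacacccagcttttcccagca
Ifit1: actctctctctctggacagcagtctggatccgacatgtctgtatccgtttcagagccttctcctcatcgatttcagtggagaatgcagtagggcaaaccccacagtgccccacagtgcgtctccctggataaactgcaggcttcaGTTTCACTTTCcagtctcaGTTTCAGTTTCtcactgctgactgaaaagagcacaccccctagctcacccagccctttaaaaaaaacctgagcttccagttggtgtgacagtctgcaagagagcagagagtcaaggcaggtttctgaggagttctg
Isg15: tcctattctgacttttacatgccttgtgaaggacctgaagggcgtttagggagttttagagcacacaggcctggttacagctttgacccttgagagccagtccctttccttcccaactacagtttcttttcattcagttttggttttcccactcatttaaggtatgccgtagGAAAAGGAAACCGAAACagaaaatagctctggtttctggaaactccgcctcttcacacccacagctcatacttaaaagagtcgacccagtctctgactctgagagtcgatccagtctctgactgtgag

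Glycolysis had the highest share of called genes among the 44 functional lists, with 13 of 19 higher and 0 lower (68.4%; median 1.01). Slc16a3, the lactate exporter MCT4, was at 107, 155 and 101 CPM with E2, against 3.25, 3.34 and 7.85 CPM with placebo (4.65 ± 0.58, adjusted p = 2.22e-06). Slc16a1, the transporter MCT1, was at 434, 467 and 472 CPM with E2, against 51.3, 86.9 and 76.6 CPM with placebo (2.68 ± 0.32, adjusted p = 1.33e-06). Ldha, lactate dehydrogenase, was at 880, 1077 and 886 CPM with E2, against 321, 362 and 456 CPM with placebo (1.32 ± 0.18, adjusted p = 6.79e-06). All 3 genes were higher in every E2 library than in any placebo library. The enolase gene Eno1 rose by 1.26 ± 0.13 (adjusted p = 1.65e-07), and Gapdh, Gpi1, Tpi1, Pgk1, Pgam1, Aldoa, Pkm, Pdk1 and Pfkl rose by 0.67 to 1.35. The glucose transporter gene Slc2a1 was at 238, 271 and 216 CPM with E2 and 169, 172 and 219 CPM with placebo (0.37 ± 0.26, adjusted p = 0.357). The hexokinase gene Hk2 was at 154, 213 and 146 CPM with E2 and 62.0, 99.3 and 106 CPM with placebo (0.94 ± 0.36, adjusted p = 0.0777). Several of these enzymes have processed pseudogenes of near-identical sequence, so reads could be split. When any 1 of the 6 libraries was left out, 9 to 14 were called higher and 0 lower.

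Of 14 hypoxia response genes 5 rose and 0 fell (35.7%; median 0.68): the collagen hydroxylase genes P4ha2 and P4ha1, Ndrg1 (1.77), the oxygen sensor gene Egln3 (1.35) and the carbonic anhydrase gene Car9 (2.23). P4ha2 was at 282, 291 and 173 CPM with E2, against 13.1, 28.1 and 48.7 CPM with placebo (3.05 ± 0.43, adjusted p = 1.04e-05). Without D542G placebo 1 or 2 or D542G E2 3 the number was 3. The nuclear-encoded genes of oxidative phosphorylation had 1 of 20 higher (Cox5a, 0.59) and 1 lower (Sdha, -0.35), and the 12 mitochondrially encoded genes had 0 called (median 0.10; mt-Cytb was at 666, 1279 and 3250 CPM with E2 and 2690, 1393 and 1641 CPM with placebo).

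The unfolded protein response was another list with most of its called genes higher, 13 of 24 against 1 lower (58.3%; median 0.64). These genes fold and inspect secreted proteins in the endoplasmic reticulum and are turned on when the load of such proteins grows. The fold changes were smaller than those of the chemokines but even across libraries. Hspa5, the chaperone BiP, was at 2351, 2126 and 2071 CPM with E2, against 1361, 1149 and 1002 CPM with placebo (0.90 ± 0.18, adjusted p = 6.61e-04). Pdia6, a disulfide isomerase gene, was at 1292, 1232 and 1148 CPM with E2, against 672, 605 and 753 CPM with placebo (0.86 ± 0.17, adjusted p = 5.95e-04). Calr, the lectin chaperone calreticulin, was at 1139, 1139 and 1039 CPM with E2, against 603, 611 and 761 CPM with placebo (0.75 ± 0.13, adjusted p = 1.27e-04). In all 3 genes the groups were clearly apart. The pseudokinase gene Trib3 (2.84), Manf (1.48), the sensor gene Ern1 (1.44), Dnajb9 (1.36), Edem1 (1.30), Xbp1, Creld2, Hsp90b1, Pdia4 and Syvn1 rose as well, and Sel1l fell by 0.69. Manf is overlapped over 92.3% of its span. The pro-apoptotic factor Ddit3 was at 7.54, 7.07 and 14.6 CPM with E2 and 10.8, 12.3 and 10.8 CPM with placebo (-0.22 ± 0.37, adjusted p = 0.745). With any 1 of the 6 libraries left out, 10 to 13 were called higher.

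The endoplasmic reticulum stress response element was searched on both strands as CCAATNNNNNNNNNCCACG. It was found in 19 of 12672 genes (0.15%), in 8 of the 21 genes of the list with a window (38.1%) and in 6 of the 12 that rose, which were Calr, Creld2, Hsp90b1, Hspa5, Pdia6 and Syvn1. These 6 were also all of the called genes of the whole table that held it, since 6 of the 1138 called higher with a window and 0 of the 1031 called lower had a match. Canx and Dnajc3 of the list held it and were not called. The list was made of known genes of this response, so a high share with the element says little about E2. A link between the element and the rise with E2 was not tested, and a match of letters does not show that a factor binds. The windows of Hspa5, at chr2:34771840-34772139 (plus strand), Pdia6, at chr12:17266339-17266638 (plus strand), and Calr, at chr8:84846882-84847181 (minus strand), are shown with the single match of each in capitals, which in Calr lies on the opposite strand.
Hspa5: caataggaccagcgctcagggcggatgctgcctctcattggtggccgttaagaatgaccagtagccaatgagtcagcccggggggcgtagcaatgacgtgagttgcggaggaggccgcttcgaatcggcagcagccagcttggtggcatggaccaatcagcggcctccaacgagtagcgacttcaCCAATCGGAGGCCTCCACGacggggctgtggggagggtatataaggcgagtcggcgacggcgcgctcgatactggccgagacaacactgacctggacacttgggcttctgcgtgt
Pdia6: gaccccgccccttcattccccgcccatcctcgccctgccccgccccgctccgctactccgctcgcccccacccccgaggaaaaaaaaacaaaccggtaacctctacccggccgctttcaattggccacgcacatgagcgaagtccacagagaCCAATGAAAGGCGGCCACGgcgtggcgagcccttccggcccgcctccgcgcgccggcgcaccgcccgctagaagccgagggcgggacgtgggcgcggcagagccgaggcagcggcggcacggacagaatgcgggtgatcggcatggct
Calr: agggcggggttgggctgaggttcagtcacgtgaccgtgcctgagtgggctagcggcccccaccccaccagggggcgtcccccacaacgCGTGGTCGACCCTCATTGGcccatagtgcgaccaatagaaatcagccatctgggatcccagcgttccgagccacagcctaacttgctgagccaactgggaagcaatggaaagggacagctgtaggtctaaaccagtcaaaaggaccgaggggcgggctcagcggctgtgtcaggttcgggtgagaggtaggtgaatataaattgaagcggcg

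The circadian clock list moved the other way, with 0 of 15 higher and 9 lower (60.0%; median -1.23). The clock is a feedback loop in which the activators Clock and Arntl drive the repressors of the Per and Cry families and the output factors Dbp and Tef through E-box elements. Cry2 was at 51.4, 45.8 and 31.4 CPM with E2, against 227, 293 and 222 CPM with placebo (-2.53 ± 0.32, adjusted p = 3.13e-06). Per2 was at 16.0, 17.1 and 19.3 CPM with E2, against 86.0, 125 and 64.1 CPM with placebo (-2.39 ± 0.30, adjusted p = 2.95e-06). Tef was at 55.3, 34.6 and 21.8 CPM with E2, against 184, 189 and 116 CPM with placebo (-2.13 ± 0.29, adjusted p = 6.55e-06). In all 3 genes every E2 library lay below every placebo library. Dbp (-2.81), Per1 (-1.63), Nr1d1 (-1.47), Bhlhe41 (-1.42), Npas2 (-1.03) and Bhlhe40 (-1.01) fell too. Arntl was not called, at 29.8, 39.4 and 36.5 CPM with E2 and 24.6, 34.6 and 36.2 CPM with placebo (0.15 ± 0.19, adjusted p = 0.646), nor was Clock, at 90.5, 71.1 and 56.0 CPM with E2 and 77.9, 78.6 and 73.3 CPM with placebo (-0.08 ± 0.17, adjusted p = 0.802). No label gives the hour of harvest, so the treatment and the time of day cannot be told apart for these genes. Cry2 is overlapped over 77.0% of its span. The E-box letters CACGTG were in the windows of 10.7% of all genes and 14.2% of all genes called lower. In the clock list they were in 4 of the 13 genes with a window (30.8%) and in 3 of the 7 that fell (42.9%). The list was made of known clock genes, and a link between these letters and the falls was not tested. With any 1 library left out, 7 to 9 were called lower.

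**Figure D3:**
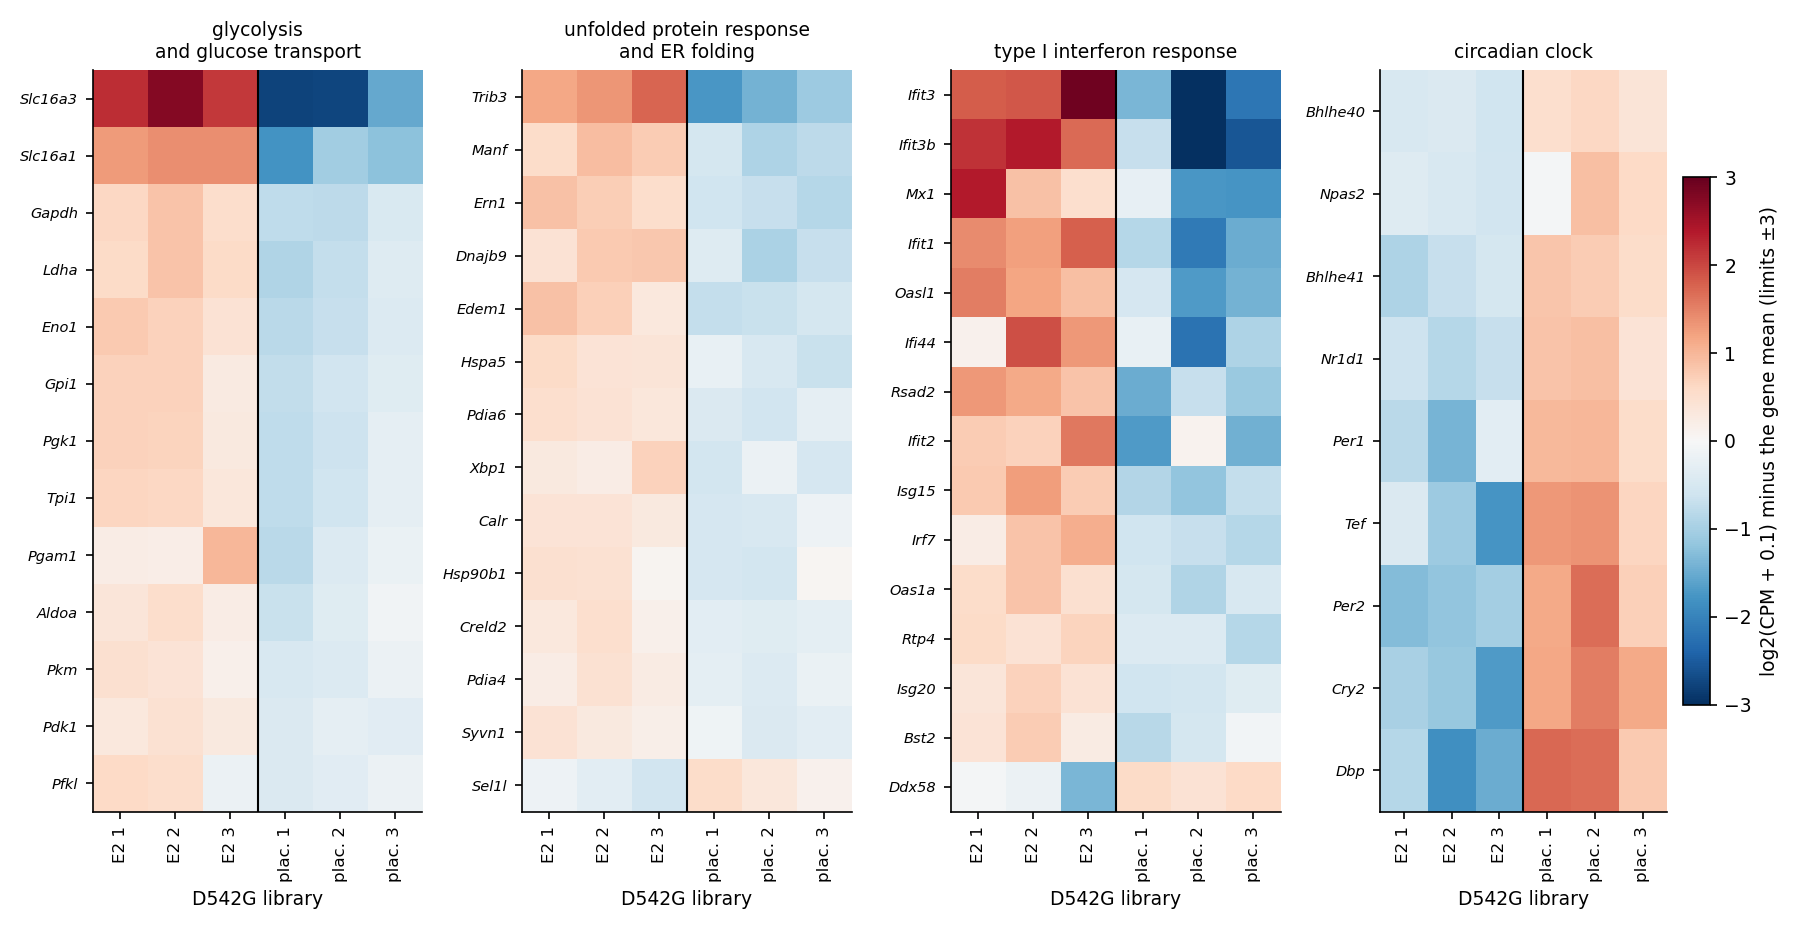
Rows are the called genes of 4 lists, ordered by fold change, and columns the 6 D542G libraries (E2 left, placebo right of the black line); colour gives log2(CPM + 0.1) minus the mean of the gene over the 6 libraries, limited at 3 in each direction. The called genes of glycolysis (13 higher), the unfolded protein response (13 higher, 1 lower) and interferon (14 higher, 1 lower) are mostly red with E2, and those of the clock (9 lower) mostly blue.

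Immediate early genes, which also respond to tissue dissociation, had 1 of 22 higher and 6 lower (31.8%; median -0.53). Fosb was at 46.5, 56.7 and 141 CPM with E2, against 507, 530 and 307 CPM with placebo (-2.46 ± 0.57, adjusted p = 0.00324). Atf3 (-1.47), Nr4a1 (-1.45), Hspa1a (-1.67), Klf4 (-1.0) and Jund (-0.85) fell as well, and Ier3 rose to 824, 1110 and 959 CPM, against 184, 291 and 228 CPM with placebo (2.04 ± 0.27, adjusted p = 3.88e-06). The summed level of the list was 10676 to 13478 CPM with E2 and 16090 to 19862 CPM with placebo. The labels give no handling times, and the part of cell isolation in these differences was not tested. Hspa1a has a near-identical neighbour, so its reads could be split.

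Keratin and mucin genes changed in 7 of 15 cases, 5 higher and 2 lower (46.7%; median 0.66). Krt19 was at 17934, 18999 and 16990 CPM with E2, against 7998, 9675 and 9903 CPM with placebo (0.97 ± 0.19, adjusted p = 5.50e-04), and Krt8 (1.0) and Krt18 (0.57) rose with it. Krt4, a keratin of stratified mucosa, was at 549, 364 and 324 CPM with E2, against 24.1, 34.1 and 17.9 CPM with placebo (4.03 ± 0.62, adjusted p = 4.11e-05). The membrane mucins went both ways: Muc13 rose by 3.56 to 248, 286 and 432 CPM, against 30.0, 19.2 and 32.8 CPM with placebo, whereas Muc16 and Muc1 fell. Junction genes had 2 of 20 higher, which were the claudin gene Cldn7 (0.71) and occludin, Ocln (0.73), and 2 lower, Tjp3 (-0.97) and Cldn8 (-0.62). Uroplakin genes had 2 of 5 lower (40.0% called). Upk1b was at 0.0, 0.207 and 0.0 CPM with E2 and 5.11, 5.68 and 4.54 CPM with placebo. Upk3a was at 34.0, 19.0 and 2.36 CPM with E2 and 144, 217 and 111 CPM with placebo (-3.09 ± 1.01, adjusted p = 0.0356), a call lost without D542G placebo 1 or 2 or D542G E2 2 or 3.

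Cell cycle genes gave a mixed picture. Of 30 genes of G2 phase and mitosis 4 rose and 0 fell (13.3%), with a median of 1.76. Cdc20, the mitotic exit activator, was at 142, 141 and 175 CPM with E2, against 17.2, 6.61 and 32.7 CPM with placebo (3.02 ± 0.74, adjusted p = 0.00479). Cenpa (2.43), Ccnb2 (3.11) and Bub1b (1.67) rose too. The number higher was 2 without D542G placebo 1 or 2, and 7 with only the 6 libraries in the fit. Mki67, the proliferation marker, was at 27.5, 32.8 and 16.6 CPM with E2 and 11.1, 2.95 and 16.6 CPM with placebo, so its groups touched (1.33 ± 1.10, adjusted p = 0.447). Of 23 S phase genes 0 were called (median 0.87); Mcm6, the highest of them, was at 204, 286 and 202 CPM with E2 and 193, 224 and 322 CPM with placebo. Among 21 growth control genes 5 rose and 1 fell (28.6% called, against 15.7% of all genes). Mycl, Cdkn2b (1.25), Myc, Cdkn1a and Trp53 (0.62) rose and the pocket protein gene Rbl2 fell by 0.69. Mycl was at 791, 695 and 682 CPM with E2, against 164, 234 and 317 CPM with placebo (1.60 ± 0.35, adjusted p = 0.00171). This count fell to 2 without D542G placebo 1, D542G placebo 2 or D542G E2 1 and to 3 without D542G E2 2. Of the apoptosis genes, Casp8 (0.47) and Tnfrsf10b (1.10) rose and Mcl1 fell by 0.65 on the log2 scale.

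Among genes of lipid metabolism, called members went both ways in each list. Among 22 genes of fatty acid and triglyceride synthesis 5 rose and 4 fell (40.9%; median -0.35), with Elovl1, Elovl5, Acsl3, Me1 and Dgat1 higher by 0.44 to 0.94 and Dgat2 (-2.10), Lpin1 (-1.6), Fads1 (-1.2) and Srebf1 (-0.68) lower. The final step of triglyceride synthesis has 2 enzymes: Dgat2 was at 432, 416 and 327 CPM with E2, against 1600, 1842 and 1613 CPM with placebo (adjusted p = 4.98e-04), while Dgat1 rose. Between 1 and 4 were called higher with 1 library left out, the fewest without D542G placebo 1, and 2 were lower without D542G E2 2. Cholesterol synthesis had 2 of 22 higher (Cyp51 at 1.34 and Ebp at 1.15) and 2 lower (Sc5d at -0.91 and Dhcr7 at -1.17), and steroid metabolism 1 of 12 higher (Akr1c14, 3.92) and 1 lower (Hsd17b2, -2.57). These are 18.2% and 16.7% called, near the 15.7% of all genes. Amino acid transport and synthesis had 2 of 18 higher (Slc7a1 at 0.90 and Slc1a4 at 1.0) and 1 lower (Asns, -0.86), and ribosome biogenesis 2 of 20 higher, Nop56 (1.24) and Nop16 (0.73). Oxidative stress genes had 2 of 20 higher (Gpx3, and Prdx1 at 0.44) and 4 lower (30.0% called). The lower genes were Gstm2 (-1.35), Gstm1 (-0.90), Txnrd1 (-0.55) and catalase, Cat (-0.44). Without D542G placebo 1 or 2 or D542G E2 2 or 3 the number lower was 2.

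Among signalling genes, those called included ligands, receptors and inhibitors. The share called was 29.4% in the EGF list and 35.3% in the IGF list, against 15.7% of all genes. In the Wnt list 5 of 21 fell and 1 rose (28.6%; median -0.53): Wnt4, Wnt7b, the receptor ligase gene Rnf43 (-1.90), Sfrp1 (-3.20) and Tcf7 (0.0 in every E2 library and at 0.192 CPM or below with placebo) fell, and Dkk3 rose to 159, 312 and 170 CPM, against 8.06, 5.29 and 6.78 CPM with placebo (4.99 ± 0.94, adjusted p = 4.03e-04). The number lower was 3 without D542G placebo 3 or D542G E2 2 or 3. EGF family genes had 4 of 17 higher, Epgn, Areg, the feedback inhibitor gene Errfi1 (0.92) and the ligand-releasing protease gene Adam17 (0.51), and 1 lower; 1 or 2 were higher without any 1 library other than D542G E2 3. In the IGF pathway 4 of 17 rose and 2 fell: the adaptor genes moved in opposite directions, with Irs1 at 64.2, 47.9 and 54.9 CPM with E2, against 10.3, 15.1 and 14.5 CPM with placebo (2.06 ± 0.48, adjusted p = 0.00311), and Irs2 at 23.2, 22.7 and 41.8 CPM with E2, against 95.3, 88.0 and 73.9 CPM with placebo (-1.55 ± 0.34, adjusted p = 0.00169). Stc2, Pappa (3.11) and Igfbp7 (2.51) also rose and Stc1 fell; Igfbp7 was at 144 CPM in D542G E2 3 and 25.0 and 11.6 CPM in the other E2 libraries, and 2 of the list were higher without D542G placebo 1, D542G placebo 2 or D542G E2 3.

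The prolactin and Stat5 list had 4 of 14 higher and 2 lower (42.9%; median 0.11). The feedback inhibitor genes diverged: Socs2 was at 101, 81.6 and 130 CPM with E2, against 19.0, 11.6 and 9.98 CPM with placebo (2.95 ± 0.46, adjusted p = 4.36e-05), and Cish (1.33) and Socs1 (1.01) rose, whereas Socs3 averaged 420 ± 108 CPM with E2, against 1448 ± 340 CPM with placebo (SD, n = 3 each), with no overlap of the groups (-1.79 ± 0.31, adjusted p = 1.37e-04). In the TGF-beta family 2 of 21 rose, Tgfb3 (2.07) and Grem1 (1.24 CPM in D542G E2 3, at 0.0345 CPM or below in the other E2 libraries and listed at 0.0 with placebo), and 2 fell, the activin subunit gene Inhbb (-1.61) and Id2 (-1.13). Tgfb3 was at 504, 435 and 507 CPM with E2, against 87.7, 145 and 111 CPM with placebo (adjusted p = 4.63e-06). In the Notch pathway the target gene Hes1 fell by 1.15 and 0 of 17 rose. The share called was 19.0% in the TGF-beta list and 5.88% in the Notch list, near or below the 15.7% of all genes. Among 29 nuclear receptors 1 rose and 5 fell (20.7%). The estrogen-related receptors moved apart: Esrrb was at 28.7, 22.4 and 36.1 CPM with E2, against 1.84, 3.13 and 3.88 CPM with placebo (3.30 ± 0.50, adjusted p = 3.18e-05), and Esrrg was at 3.56, 4.73 and 6.42 CPM with E2, against 52.3, 48.8 and 26.6 CPM with placebo (-3.12 ± 0.52, adjusted p = 9.93e-05). The mineralocorticoid receptor gene Nr3c2 (-1.97), Nr1d1, Nr4a1 and Esr1 fell, and 3 were lower without D542G placebo 3 or D542G E2 2 or 3.

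Ion channel genes had 2 of 24 higher and 4 lower (25.0%; median -0.09). Beside the potassium channels, the calcium-activated chloride channel gene Ano1 was at 874, 773 and 901 CPM with E2, against 3040, 2233 and 1722 CPM with placebo (-1.46 ± 0.28, adjusted p = 5.34e-04), and Scnn1a, a subunit of the epithelial sodium channel, fell by 1.83. Its partner Scnn1g rose by 1.74, and Cftr, the chloride channel of cystic fibrosis, was at 0.793, 1.31 and 3.08 CPM with E2 and 0.0 CPM in all placebo libraries. Among 18 receptors of the G protein-coupled kind 1 was called, Adra1a (-3.48), a share of 5.56% against 15.7% of all genes. Of 28 extracellular proteases and inhibitors 6 rose and 3 fell (32.1%; median 0.89): Adam8, Mmp14 (0.94), Tmprss11e (2.65), Adamts4 (2.18), Adam17 and Mmp9 rose, and Tmprss2 (-1.71), Timp2 (-1.15) and Mmp15 (-0.84) fell. Adam8 was at 39.3, 46.1 and 15.7 CPM with E2, against 0.273, 0.409 and 0.405 CPM with placebo (6.53 ± 0.79, adjusted p = 1.50e-06). Mmp9, at 4.38 CPM in D542G E2 3 and 0.889 and 0.0 CPM in the other E2 libraries, rested on that library; 3 of the list rose without it or without any 1 placebo library. The 4 tested placental-type cathepsins had 0 calls, with Ctsr at 1096, 1333 and 939 CPM with E2 and 108, 269 and 497 CPM with placebo (1.95 ± 1.02, adjusted p = 0.204) and Ctsj at 67.7, 77.4 and 59.8 CPM with E2 and 177, 258 and 219 CPM with placebo (-1.67 ± 0.98, adjusted p = 0.258). The test shares its spread over all 37 libraries, and with the 6 libraries alone Ctsj was called (adjusted p = 0.00126).

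**Figure D4:**
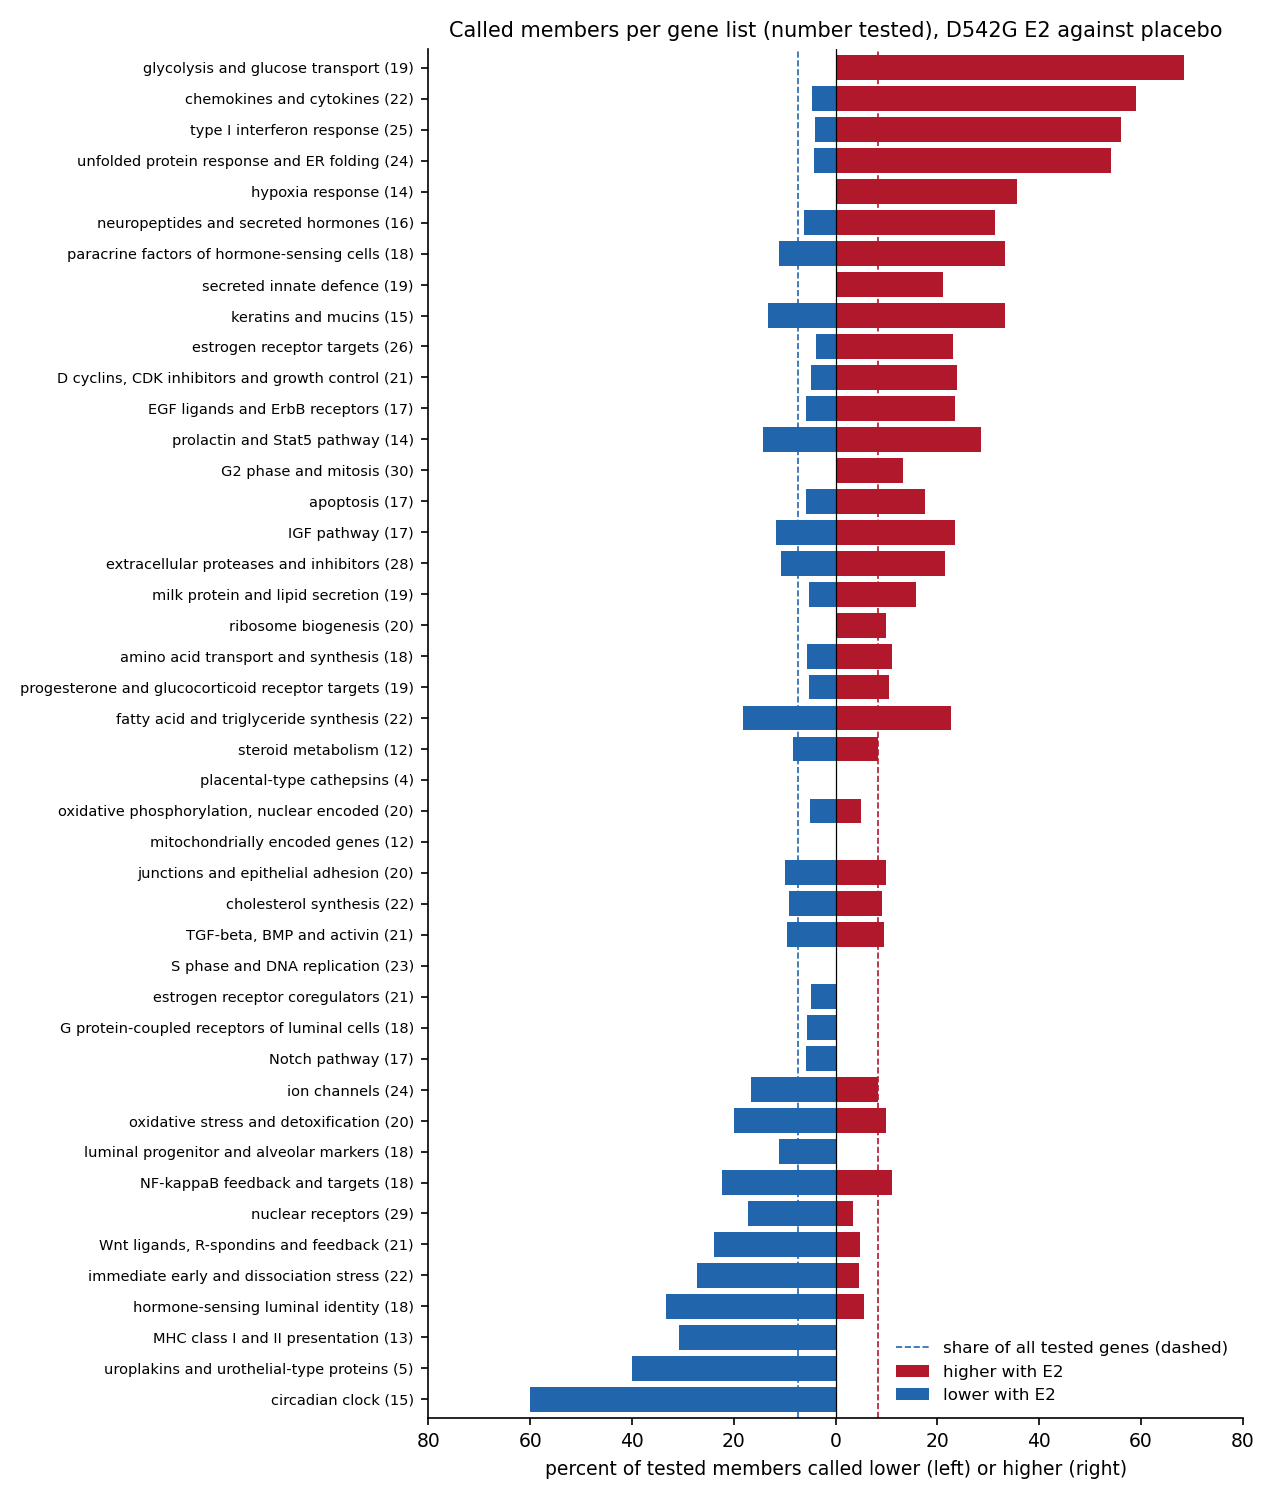
For each of the 44 functional lists, named with the number of tested genes in parentheses, the red bar gives the percent called higher with E2 (right) and the blue bar the percent called lower (left); dashed lines mark the shares of all tested genes, 8.36% higher and 7.34% lower. Glycolysis has the longest red bar (13 of 19) and the circadian clock the longest blue bar (9 of 15).

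Transcripts of other cell types were present at low levels and were uneven among the E2 libraries. Fibroblast markers had a median of 2.74 with 2 of 12 called higher, endothelial markers 2.10 with 2 of 12, leukocyte markers 1.45 with 2 of 15, adipocyte markers 1.5 with 0 of 6 and erythroid markers 1.49 with 0 of 5. Basal markers had 1 of 16 higher and 1 lower (median 0.37). Called shares were 16.7% for fibroblast, 16.7% for endothelial, 13.3% for leukocyte and 12.5% for basal markers. All lay near or below the 15.7% of all genes. The summed level of leukocyte markers was 12.9 to 122 CPM with E2 and 9.79 to 12.7 CPM with placebo, that of endothelial markers 131 to 376 CPM with E2 and 205 to 272 CPM with placebo, and that of adipocyte markers 22.8 to 202 CPM with E2 and 12.9 to 38.4 CPM with placebo. D542G E2 3 was the highest E2 library for each of these sums, and 1, 7 and 4 of the 15 leukocyte markers were at 0 in E2 libraries 1, 2 and 3. Erythroid marker sums were 16.9 to 237 CPM with E2 and 18.2 to 53.1 CPM with placebo, and basal marker sums 72.0 to 359 CPM with E2 and 76.9 to 408 CPM with placebo. The part of these cells in the results above was not tested. Fibroblast sums were 286 to 582 CPM with E2 and 275 to 953 CPM with placebo. The endothelial gene Pecam1 was at 9.68, 13.9 and 57.5 CPM with E2 and 10.6, 6.06 and 4.61 CPM with placebo, and the leukocyte gene Ptprc was at 1.85 CPM or below in all 6. Without D542G E2 3, 0 members of the fibroblast, leukocyte, adipocyte and erythroid lists were called, the endothelial list had 0 higher and 1 lower, and 2104 genes were called in all; the fibroblast median was then 1.85. Without D542G placebo 2 or 3 the fibroblast and endothelial lists likewise had 0 higher. Without D542G E2 2 they had 3 and 6 higher, and DESeq2 called 6 and 7 higher. Without D542G E2 3 the lists led with above had 12 glycolysis, 12 unfolded protein response, 11 interferon and 10 chemokine genes higher and 8 clock genes lower.

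Whether estradiol acted on D542G cells as on WT cells was asked through the difference of the 2 responses, an interaction over 12 libraries. In WT cells E2 changed 5796 genes (31.5%). Of the 2893 genes called in D542G cells, 1593 were also called in WT cells in the same direction, 55.1% of the D542G calls and 27.5% of the WT calls, and 133 in the opposite direction. The responses share no library. The interaction was called for 1701 genes (9.23%), of which 1059 were called in WT cells alone, 306 in D542G cells alone, 133 in both with opposite directions, 128 in both with the same direction and 75 in neither.

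Hormone-sensing genes fell less in D542G cells. Esr1 was at 87.6 ± 14.5 CPM with E2 and 171 ± 25.9 CPM with placebo in D542G cells, and at 24.3 ± 14.8 CPM with E2 and 688 ± 130 CPM with placebo in WT cells (SD, n = 3 each, also for the values below). The D542G fall was smaller than the WT fall, with an interaction of 3.86 ± 0.49 (adjusted p = 1.80e-05). Pgr was at 450 ± 71.5 CPM with E2 and 260 ± 39.0 CPM with placebo in D542G cells, and at 67.0 ± 23.8 CPM with E2 and 184 ± 97.7 CPM with placebo in WT cells (interaction 2.25, adjusted p = 0.00542). Cited1 (4.32), Foxa1 (2.78), Tbx3 (2.66) and Prlr (2.61) also had positive interactions, and 7 of the 18 hormone-sensing genes were called so and 0 negative. Of these 18 genes 6 fell and 1 rose in D542G cells, against 14 and 0 in WT cells.

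The progenitor and alveolar markers rose with E2 in WT cells in 15 of 18 cases, against 0 in D542G cells, and 13 had a negative interaction. Kit was at 36.9 ± 10.6 CPM with E2 and 103 ± 40.9 CPM with placebo in D542G cells, and at 902 ± 250 CPM with E2 and 168 ± 7.35 CPM with placebo in WT cells (interaction -3.90, adjusted p = 4.45e-04). Mfge8 was at 1320 ± 263 CPM with E2 and 1084 ± 306 CPM with placebo in D542G cells, and at 7129 ± 2751 CPM with E2 and 1125 ± 177 CPM with placebo in WT cells (interaction -2.38, adjusted p = 4.92e-04). Summed over the list, progenitor markers were at 2445 to 4399 CPM in D542G E2 libraries, 2451 to 4436 CPM in D542G placebo libraries, 17641 to 51928 CPM in WT E2 libraries and 5003 to 5910 CPM in WT placebo libraries. The milk secretion list gave 0 positive and 7 negative interactions. Whether the sorted populations held the same share of each luminal subtype was not tested.

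Of the 25 interferon genes 14 rose in D542G cells and 16 in WT cells, and 0 had a called interaction (median -0.62). Slpi rose by 9.75 in D542G and 8.57 in WT cells, with a difference of 1.18 (adjusted p = 0.572), and Penk, Tph1, Cxcl5 and Greb1 likewise had no called difference; an interaction that misses the threshold does not show equal responses. Glycolysis had 13 genes higher and 0 lower in D542G cells, against 8 and 2 in WT cells, and 6 positive interactions and 1 negative. The clock list had 0 genes higher and 9 lower in D542G cells, against 2 and 10 in WT cells, with 1 positive and 3 negative interactions. Immediate early genes had 1 higher and 6 lower in D542G cells, against 2 and 10 in WT cells. Of the 22 chemokine and cytokine genes 1 had a positive and 5 a negative interaction. Il33 rose in D542G cells, whereas in WT cells it was at 44.5 ± 47.4 CPM with E2 and 45.4 ± 22.2 CPM with placebo (interaction 4.29, adjusted p = 0.00304). Stc2 rose by 1.08 in D542G cells and fell by 1.06 in WT cells (2.14, adjusted p = 9.24e-04). Trib3 (2.5, adjusted p = 5.50e-04) and Krt4 (2.71, adjusted p = 0.0287) rose in D542G cells with no called change in WT cells. The largest positive interactions among well-expressed genes were Upk3a (7.49), the adrenoceptor gene Adra2a (6.05), Trex2 (5.45), the channel regulator gene Abcc8 (5.0), Pparg (4.85), the fibrinogen genes Fgg (4.62) and Fgb (4.52) and Nrxn3 (4.57), and all of these fell in WT cells. The largest negative ones were Btbd11 (-5.34), Dclk1 (-4.94), Plb1 (-4.88), Ltbp2 (-4.65), Itgb8 (-4.59), Clic6 (-4.51), Adamts15 (-4.49) and Snorc (-4.48).

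**Figure D5:**
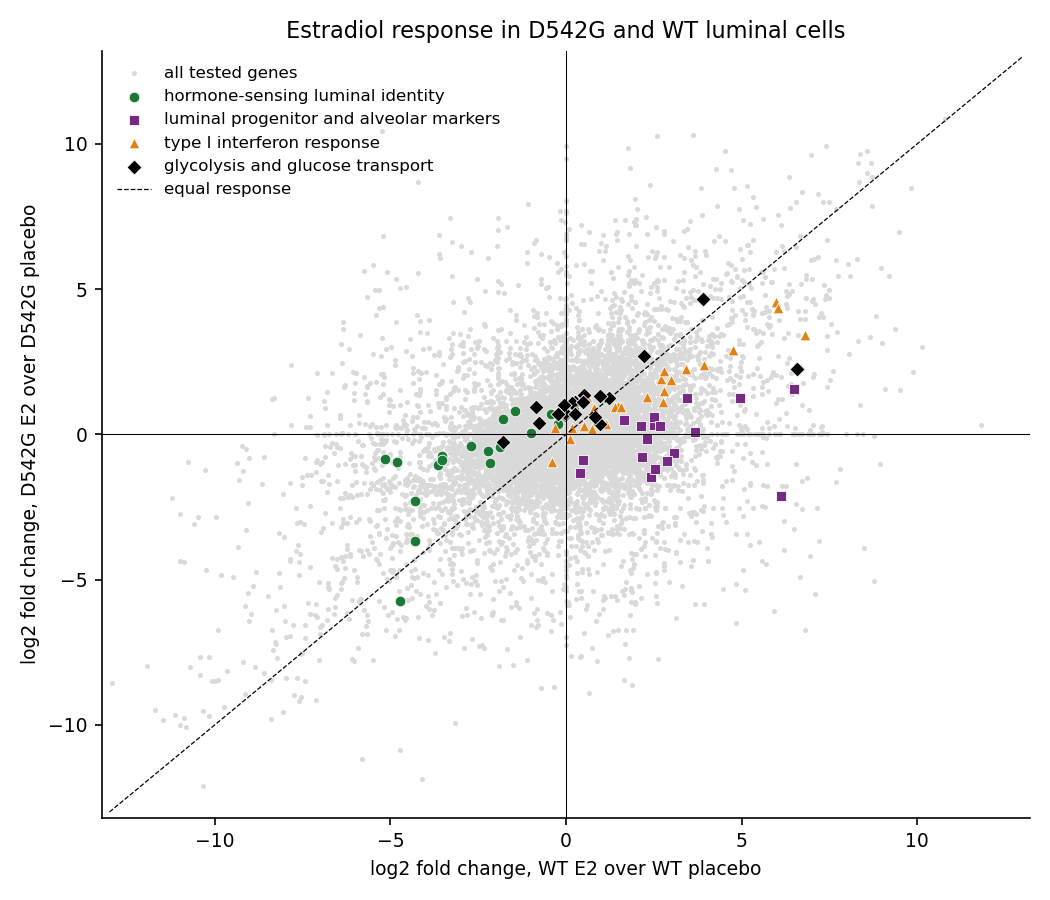
Each grey point is a tested gene, with the log2 fold change of WT E2 over WT placebo on the x axis and that of D542G E2 over D542G placebo on the y axis; 4 lists are coloured and the dashed line marks equal responses. Hormone-sensing genes (green) lie far to the left and closer to 0 on the y axis, progenitor and alveolar markers (purple) lie to the right and near 0 on the y axis, and interferon genes (orange) rise on both axes.

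Against Y541S cells the interaction was called for 775 genes (4.21%), 440 positive and 335 negative. In Y541S cells 857 genes were called with E2, and 350 of these shared the direction of a D542G call, 12.1% of the D542G calls and 40.8% of the Y541S calls; 36 were opposite. Slpi was at 2989 ± 837 CPM with E2 and 3.47 ± 0.663 CPM with placebo in D542G cells, and at 1259 ± 573 CPM with E2 and 492 ± 260 CPM with placebo in Y541S cells (interaction 8.40, adjusted p = 5.47e-05). Tph1 was at 3326 ± 861 CPM with E2 and 50.2 ± 31.0 CPM with placebo in D542G cells, and at 1646 ± 607 CPM with E2 and 1155 ± 545 CPM with placebo in Y541S cells (5.54, adjusted p = 5.05e-04). Greb1 was at 7.06 ± 0.881 CPM with E2 and 0.858 ± 0.385 CPM with placebo in D542G cells, and at 24.1 ± 5.34 CPM with E2 and 29.1 ± 14.2 CPM with placebo in Y541S cells (3.31, adjusted p = 0.00684). In these genes the placebo level was low in D542G and high in Y541S cells. Cited1 had the opposite sign, at 145 ± 51.4 CPM with E2 and 259 ± 98.7 CPM with placebo in D542G cells, and at 280 ± 106 CPM with E2 and 45.9 ± 15.3 CPM with placebo in Y541S cells (-3.45, adjusted p = 0.00255). By list, glycolysis had 10 positive and 0 negative interactions, chemokines 8 and 0, and the unfolded protein response 5 and 0. The kallikrein genes Klk7 and Klk8, Scgb3a1, Slpi and Cxcl5 had the largest positive interactions, and Extl1, Sord, Cdh13, Pak3 and Snorc the largest negative ones. The number of calls was 446 and 432 without D542G placebo 1 or 2, 485 without Y541S placebo 2, 444 and 515 without Y541S E2 1 or 3, and 1290 by DESeq2. Y541S placebo 5 stood apart from the other libraries of its group, and without it 1072 genes were called.

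Estradiol was also given on top of P4 in D542G cells. In the comparison of D542G E2+P4 with D542G P4, which shares no library with the one above, 953 genes were called (5.17%), 551 higher and 402 lower; DESeq2 called 1523, with 725 higher and 798 lower. The number was 483 without D542G P4 2, 614 without D542G P4 3, and 459 and 566 without D542G E2+P4 1 or 3. Both comparisons called 399 genes in the same direction, 13.8% of the calls without P4 and 41.9% of those with it, and 32 in opposite directions. The unfolded protein response list had 13 of 24 higher and 0 lower on the P4 background, and 13 higher and 1 lower without P4. Greb1 was at 67.3 ± 15.3 CPM with E2+P4 and 4.32 ± 2.81 CPM with P4 (3.96, adjusted p = 4.77e-05), and Stc2 at 399 ± 121 CPM with E2+P4 and 46.0 ± 18.7 CPM with P4 (3.12, adjusted p = 3.77e-07). The chemokine list had 0 calls on the P4 background, the interferon list 2 higher and 1 lower, glycolysis 2 higher and 1 lower, and the clock list 2 lower. Cxcl5 (0.79, adjusted p = 0.661), Penk (-1.49, adjusted p = 0.367) and Il33 (-1.89, adjusted p = 0.105) were not called there; whether the responses with and without P4 differ was not tested.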

How the data were processed

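RNA-seq libraries of sorted mature luminal cells were analysed from the deposited counts per gene, whole numbers made by the authors on the genome build GRCm38, per the submitters' processing notes. The aligner, the counter and whether strand was used are not given in the sources used here. Deposited RPKM values, which the authors derived from the counts, were not used for any test. Gene symbols and positions came from the GENCODE annotation of the reference, and 52403 of 52636 identifiers matched. The 233 unmatched identifiers held at most 0.035% of the counts of a library. Of the coding genes lying wholly inside another gene, 89.3% were at 0, against 18.9% of those free of overlap, so overlapping genes are uncertain. Tcf7, Hspa1a and Jund are overlapped over much of their span.

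Genes were filtered by filterByExpr, scaled by TMM and tested with edgeR 4.0.16 (R 4.3.3) by the quasi-likelihood test, with Benjamini-Hochberg adjustment over 18426 genes. All 37 libraries in 12 groups shared the estimate of spread (common biological coefficient of variation 0.458, 25 residual degrees of freedom). DESeq2 1.42.0, other scaling and filters, smaller sets of libraries, a replicate block and leaving out each library were alternatives. The procedure was tested on simulated data. For D542G E2 against placebo it called 28% of 100 genes changed 2-fold and 77% of 100 changed 4-fold, with 4 false calls. For the interaction with WT these shares were 13% and 64%. A gene that was not called can therefore still have changed. Only 200 genes were changed in the simulation, against 2893 called in the data, and genes with low counts were not drawn. The shares thus do not give the share of real changes found in this comparison. Replicates differed by more than sampling noise, so none was merged. Libraries held 25.69 to 52.24 M (mega-counts), which limits precision for genes near 0. Figures were drawn with matplotlib 3.10.9.

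Named genes were the 15 largest rises and 15 largest falls among called genes whose log2 CPM averaged 2 or more and whose groups do not overlap, a panel of genes, up to 5 called members of each list, the top member of each cell type list, and the largest interactions; other list members are named as the list's called genes. The members and lists were chosen with earlier results of these data known. Results of a few genes are not reported here.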

Additional observations from a re-analysis of the deposited data

Results flagged for a closer look

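The estradiol response of D542G cells differed from that of WT cells in 1701 genes by a test of the difference itself, the interaction term over 12 libraries (edgeR quasi-likelihood, adjusted p under 0.05), with 833 positive and 868 negative. By the same kind of test it differed from that of Y541S cells in 775 genes, with 440 positive and 335 negative.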

How the results depend on the processing

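The number of genes called for D542G E2 against placebo was 2893, and it lay between 1817 and 2440 with 1 of the 6 libraries left out, with 923 to 1312 higher and 894 to 1184 lower. It was 2909 with RLE scaling, 2372 with no filter, 3076 with a stricter filter, 2692 with D542G libraries only, 3063 with the 6 libraries only and 3836 with DESeq2. The interaction with WT gave 1159 to 1873 with 1 library left out, that with Y541S 432 to 1072, and E2+P4 against P4 459 to 969; DESeq2 gave 2407, 1290 and 1523 in that order. WT E2 against placebo gave 4323 to 5541 with 1 library left out. Causes of these shifts were not tested, except that leaving out a library reduces the samples. Same-numbered D542G E2 and placebo samples had correlations of deviations of -0.005, 0.048 and -0.031. Those of D542G E2+P4 and P4 were 0.185, 0.272 and 0.054, beside -0.24 to 0.124 for differently numbered samples. The labels give groups and numbers but no pairs, so the numbers were not used as pairs in either comparison. Whether same-numbered E2+P4 and P4 samples were handled together is not known. With a replicate block 3101 genes were called, 2672 of them shared with the 2893. The block gave 1938, 887 and 1028 for the other comparisons in the same order, and 1463 for Y541S E2 against placebo (608 higher, 855 lower), against 857 without it. Of 52 tracked genes 38 were called, and 30 of these were called under every alternative tried; Mest, Gm12888, Esr1, Prlr, Areg, Kit, Myc and Upk3a were lost in at least 1. Pgr, Csn2 and Ctsj gained a call in at least 1 alternative. No called value changed sign, and the uncalled values of Gata3, Ccnd1 and Fkbp5 did so in 1 alternative each. Depth limits genes near 0, where a few counts set the level.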

Other observations

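Processed pseudogenes had 77 of 1107 tested genes higher with E2 and 17 lower in D542G cells (8.49% called), a split further to the higher side than that of protein-coding genes (1391 higher and 1257 lower) by count alone, and the difference was not tested. Antisense genes had 12 of 556 higher and 20 lower.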
